A study of Mus musculus with 12 samples.

Results

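The apoptosis regulators Bcl2, Bcl2l1 and Mcl1 (anti-apoptotic), Bax (effector), Bbc3 and Bcl2l11 (BH3-only), Fas (death receptor) and Casp8 (initiator caspase) were followed at the DNA level in liver tumors. Their probes were taken by gene name from the array. It held 11 probes for 7 of the 8 genes, among 20464 gene names with a usable position, and no probe named Bax. Array-based comparative genomic hybridization (aCGH) was used, in which DNA of 1 tumor, labelled with Cy5, and DNA of liver tissue away from the tumor, taken from that mouse and labelled with Cy3, compete for each probe. All 12 mice were Mdr2-KO/FVB (FVB.129P2-Abcb4tm1Bor), which lack a phospholipid transporter of the bile canaliculus and develop chronic liver inflammation and later tumors. The post-PHx group held 6 tumors (4 of males, 2 of females) of mice that underwent 70% partial hepatectomy (PHx) at 3 or 6 months of age and were killed at 9 months. The spontaneous group held 6 tumors (2 of males, 4 of females) of untreated mice aged 13 to 14 months. Age and treatment therefore cannot be told apart, and the knockout itself cannot be checked, since tumor and reference liver carried it alike.

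Apoptosis of a liver cell can start at the mitochondrion or at the cell surface. At the mitochondrion, Bcl2, Bcl2l1 (which encodes Bcl-xL) and Mcl1 bind and restrain the pore-forming effector Bax, while BH3-only proteins such as Puma, the product of Bbc3, and Bim, the product of Bcl2l11, release this restraint. At the surface, Fas recruits and activates caspase-8, and hepatocytes are known for their sensitivity to Fas ligation and for their dependence on Bcl-xL and Mcl1. Extra copies of an anti-apoptotic gene or missing copies of a death receptor are therefore of interest in a liver tumor, although a DNA ratio says nothing about expression or about cell death.

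Each gene was read as the mean log2 ratio of tumor over liver across its own probes and 10 probes on each side, called its window. A value of 0 means the median DNA content of that tumor's autosomes, and a window of at least 0.4, or at most -0.4, is called gained or lost. The ratio is an average over all cells of the tissue piece. The arrays stood on 3 slides of 4, and 1 slide held both groups. Signal over background was 3.80 to 11.9 for tumor DNA and 7.07 to 25.9 for liver DNA, and the noise between neighbouring probes was 0.147 to 0.265 on the log2 scale. Spon3F and Spon1M had 1495 and 425 probes below -1, against 6 to 97 on the other arrays. Each mouse gave 1 tumor and each tumor 1 array, so the tests below measure the spread between mice.

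The copy number of most of these genes stayed near the autosomal median. Of the 84 pairs of 7 genes and 12 tumors, 1 was gained (1.19%) and none was lost, against 1.87% and 1.01% of all pairs of gene windows and tumors. The gained pair was Bcl2l1 in the post-PHx tumor PHx4M, at 0.58. With a filter of 0.25 in place of 0.4, the post-PHx tumors had 3 gained and 0 lost pairs of 42, and the spontaneous tumors 3 gained and 6 lost pairs of 42. Together this made 7.14% gained and 7.14% lost, against 4.6% and 3.38% of all pairs. With a filter of 0.6 no pair passed, against 0.829% gained and 0.0517% lost of all pairs. All of the lost pairs at 0.25 thus lay in spontaneous tumors, namely 3 in Spon1M, 1 in Spon2M and 2 in Spon3F. These tumors shared a slide that held only spontaneous tumors, on which Spon4F had 0 lost pairs. Spon5F and Spon6F, on the slide of both groups, also had 0. Slide and group therefore cannot be told apart for these losses. Over all gene windows, 3.52% of the post-PHx pairs were gained and 0.274% lost at 0.25, against 5.68% and 6.48% of the spontaneous pairs, so losses lay mostly in spontaneous tumors across the genome as well. The numbers of pairs were not compared by a test, since genes of 1 tumor share its regions. The 6 post-PHx and the 6 spontaneous values overlapped for each of the 7 genes, while they did not overlap for 0.298% of all gene windows.

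**Figure D1:**
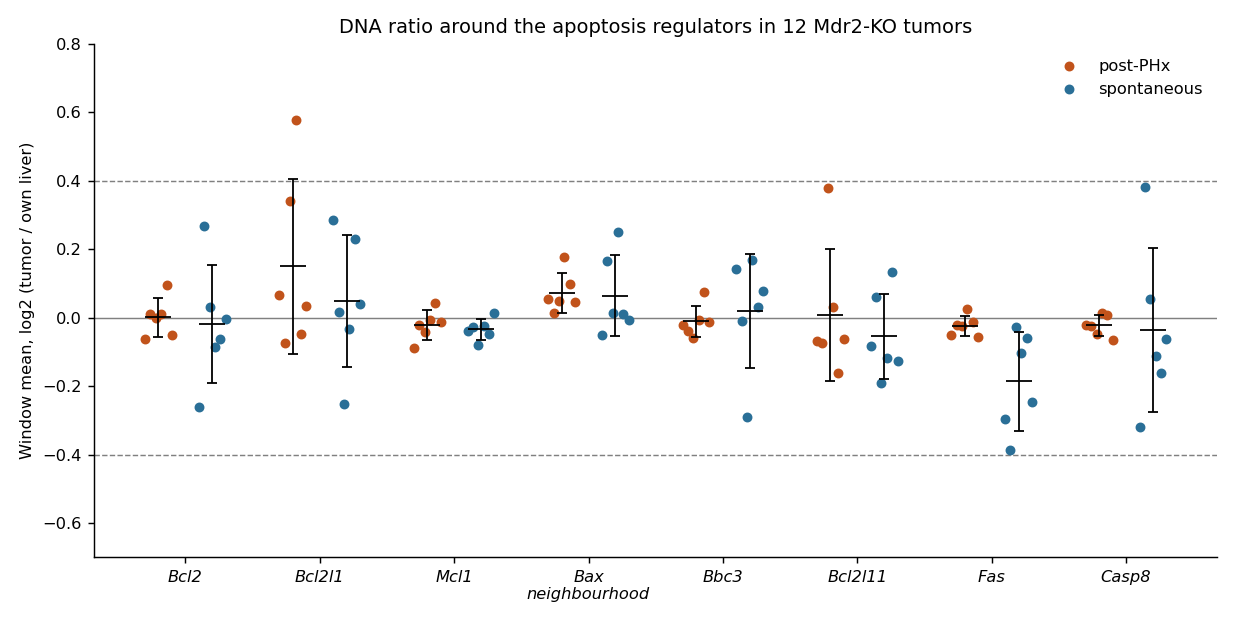
Window mean log2 ratio of tumor over the same mouse's liver (vertical axis) for the 7 regulators with probes and for the neighbourhood of Bax, with 1 point per tumor; black bars are the mean and SD of 6 tumors, and dashed lines mark -0.4 and 0.4. The only point beyond a dashed line is Bcl2l1 in PHx4M at 0.58, and Fas is the gene whose 6 spontaneous tumors all lie below 0.

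Bcl2l1 had the widest range of the 7 genes, 0.83 on the log2 scale over the 12 tumors. Its 1 probe lies on chromosome 2 at 152517287 to 152517346 (build mm8, NCBI36), between probes of U51277 and of Tpx2, and its window of 21 probes spans 0.306 Mb. Among the post-PHx tumors the window read 0.58 in PHx4M and 0.34 in PHx3M, and -0.07, -0.05, 0.04 and 0.07 in PHx2F, PHx5M, PHx6F and PHx1M. Among the spontaneous tumors it read 0.29 in Spon1M, 0.23 in Spon5F, 0.04 in Spon6F, 0.02 in Spon2M, -0.03 in Spon4F and -0.25 in Spon3F. The last value, -0.2506 with an SE of 0.12 over its probes, was only just past the filter of 0.25. The probe of Bcl2l1 itself read 0.23 in Spon3F. High values thus occurred in both groups, which overlapped over most of their range. The post-PHx mean was 0.15 ± 0.26 (SD, n = 6) and the spontaneous mean 0.05 ± 0.19 (SD, n = 6). The difference of 0.10, with a 95% interval of -0.19 to 0.39, did not pass limma's test (adjusted p = 0.982 over all gene windows, Benjamini-Hochberg), and an exact permutation test gave p = 0.450. Within the slide that held both groups the difference was -0.14, with the spontaneous tumors higher.

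The gains of Bcl2l1 belonged to long stretches of chromosome 2. In PHx4M, the running mean of 21 probes stayed at or above 0.4 from 142772631 to 181797594, the last probe of the chromosome, over 39.0 Mb. This stretch held 899 probes with a mean of 0.63, a 1.54-fold ratio, and 453 gene names, so that Bcl2l1 was 1 of many genes in it. In PHx3M, the running mean stayed at or above 0.25 from 126371561 to the same last probe, over 55.4 Mb, 1197 probes and 596 gene names, with a mean of 0.40, a 1.32-fold ratio. The longer stretch of PHx3M also contained Bcl2l11, and the shorter one of PHx4M did not. In Spon1M the unbroken stretch at or above 0.25 around Bcl2l1 measured 2.80 Mb with a mean of 0.36, within a longer region whose means in steps of 1 Mb were raised, and in Spon5F the whole of chromosome 2 had a median of 0.19. The unbroken gain around Bcl2l1 therefore ended before the chromosome did in Spon1M, and it continued to the last probe in both post-PHx tumors. Other stretches of Spon1M at or above 0.4 followed beyond it, the last from 166535830 to 166905880 with a mean of 0.44.

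Bcl2l11, the gene of the pro-apoptotic BH3-only protein Bim, lies 24.7 Mb from Bcl2l1, between probes of Acoxl and Anapc1, with 2 probes at 127842144 to 127852421. Its post-PHx windows read 0.38 in PHx3M, 0.03 in PHx4M, -0.06 in PHx6F, and -0.07, -0.07 and -0.16 in PHx1M, PHx2F and PHx5M. Its spontaneous windows ran from -0.19 in Spon3F through a median of -0.10 to 0.13 in Spon5F. PHx3M thus stood alone above the other 5 tumors of its group, whereas PHx4M, the tumor with the highest Bcl2l1 window, had Bcl2l11 near 0. The group means of 0.01 ± 0.19 and -0.05 ± 0.12 (SD, n = 6 each) differed by 0.06, with a 95% interval of -0.15 to 0.27 (limma, adjusted p = 0.982). Without PHx3M the difference was -0.01, so its direction rested on this 1 tumor.

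**Figure D2:**
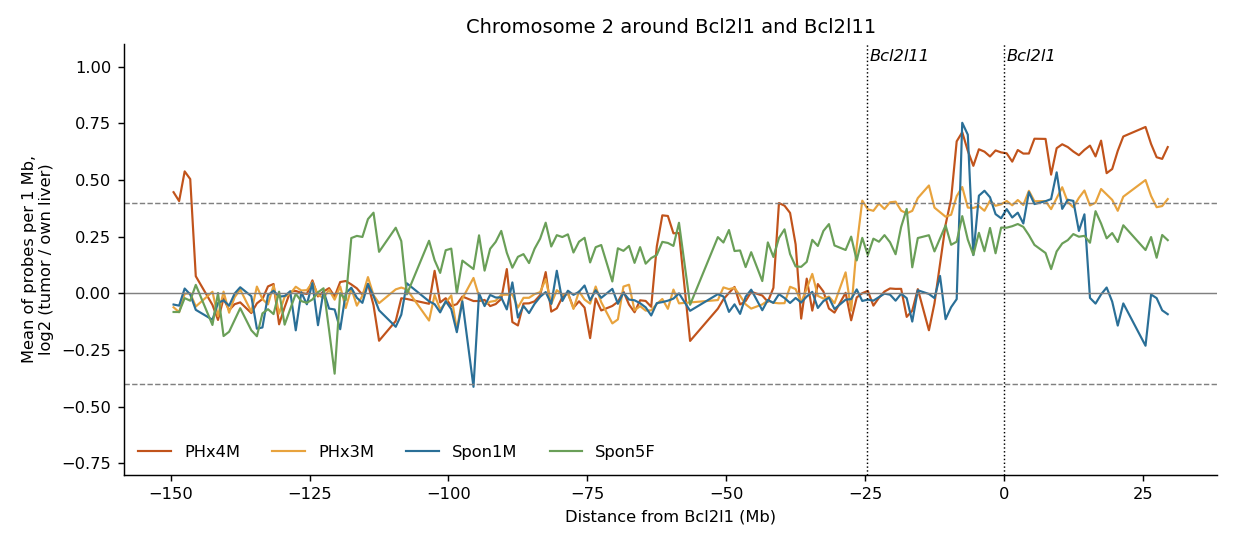
Mean log2 ratio of the probes in steps of 1 Mb (vertical axis) along chromosome 2, by distance from Bcl2l1 (horizontal axis), in PHx4M, PHx3M, Spon1M and Spon5F; dashed lines mark -0.4 and 0.4, dotted lines the genes. PHx3M was high from before Bcl2l11 to the end, and PHx4M from between Bcl2l11 and Bcl2l1 to the end. Spon1M had further raised stretches beyond Bcl2l1, the last at or above 0.4 starting 14.0 Mb from it, before it returned to 0. Spon5F was raised along most of the chromosome.

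By the windows of all other genes over the 12 tumors, taking at most 1 gene per chromosome, the patterns most like that of Bcl2l1 on other chromosomes were those of Nudt19 on chromosome 7 (Pearson's r = 0.875 across tumors), Ndufc1 on chromosome 3 (r = 0.823) and AI931714 on chromosome 8 (r = 0.722). Nudt19 read 0.54 in PHx4M and 0.40 in PHx3M. These correlations describe 12 tumors, each with both genes on the same array, and PHx4M was the highest tumor for all 4 genes.

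Mcl1, the other anti-apoptotic gene on which hepatocytes depend, varied least. Its 1 probe lies on chromosome 3 at 95748511 to 95748570, between probes of Hormad1 and Adamtsl4. The windows ran from -0.09 in PHx1M to 0.04 in PHx5M among the post-PHx tumors, with a median of -0.02, and from -0.08 in Spon3F to 0.01 in Spon6F among the spontaneous tumors, with a median of -0.03. All 12 values lay within a range of 0.13, and each lay within 0.1 of the median of chromosome 3 in the same tumor. The groups differed by 0.01 (95% interval -0.04 to 0.06; limma, adjusted p = 0.983). PHx4M had 5 gained stretches on chromosome 3, and the nearest of them lay 31.0 Mb from Mcl1.

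The probe of Mcl1 itself read higher than its surroundings. It gave 0.04 to 0.39, above the mean of its 20 flanking probes in 12 of 12 tumors, by 0.08 to 0.46 with a median of 0.25. Read by its own probe alone, Mcl1 was above 0 in both groups, by 0.21 in each (limma, adjusted p = 0.0407 in the post-PHx and 0.0364 in the spontaneous tumors), where 1.6% and 2.17% of the 19616 gene names that could be tested by their own probes passed in this direction. By this probe the groups differed by -0.000166, and the neighbouring probes did not share the offset. Values of single probes are therefore given below only beside their windows.

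Bcl2, the founding member of the anti-apoptotic group, and Casp8, which carries the signal of Fas into the cell, lie on chromosome 1 and are 49.6 Mb apart. Bcl2 has 2 probes at 108379478 to 108386130, between probes of AB093251 and Fvt1, and Casp8 has 2 at 58750567 to 58788975, between probes of Cflar and Trak2. In the post-PHx tumors, Bcl2 ran from -0.06 in PHx1M through a median of 0.00 to 0.10 in PHx5M, and Casp8 from -0.07 in PHx6F through a median of -0.02 to 0.01 in PHx4M. Neither gene thus left the neighbourhood of 0 in any post-PHx tumor. In the spontaneous tumors, Bcl2 read -0.26 in Spon1M, 0.27 in Spon2M, 0.03 in Spon3F, -0.08 in Spon4F, -0.06 in Spon5F and 0.00 in Spon6F. Casp8 read -0.32 in Spon1M, 0.38 in Spon2M, 0.05 in Spon3F, -0.11 in Spon4F, -0.16 in Spon5F and -0.06 in Spon6F. Both genes were therefore low in Spon1M and high in Spon2M, and the order of the extremes was shared by the anti-apoptotic and the pro-apoptotic gene.

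Opposite values within the spontaneous group left its means near 0. The SD of Casp8 was 0.24 in the spontaneous and 0.03 in the post-PHx tumors, and that of Bcl2 was 0.17 and 0.06. The groups differed by 0.01 for Casp8 (95% interval -0.21 to 0.23; limma, adjusted p = 0.995) and by 0.02 for Bcl2 (95% interval -0.15 to 0.18; limma, adjusted p = 0.991). The direction of both differences turned in other settings, given in the closing section. In Spon2M the median of the whole chromosome 1 was 0.28, and the Casp8 and Bcl2 windows lay 0.10 above and 0.01 below it. In Spon1M the running mean stayed at or below -0.25 from 52594954 to 65137076 around Casp8, over 12.5 Mb with a mean of -0.33, and from 94732964 to 108699955 around Bcl2, over 14.0 Mb with a mean of -0.35. The 2 genes of this tumor thus lay in separate low stretches, and the median of the chromosome was -0.15.

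Fas, the death receptor, was the member whose groups stood farthest apart. Its 2 probes lie on chromosome 19 at 34366351 to 34375340, between probes of Acta2 and Ch25h. The post-PHx windows read -0.05, -0.02, -0.02, 0.02, -0.01 and -0.06 in PHx1M to PHx6F. The spontaneous windows read -0.29 in Spon1M, -0.39 in Spon2M, -0.03 in Spon3F, -0.10 in Spon4F, -0.06 in Spon5F and -0.246 in Spon6F. All 6 spontaneous tumors were below 0, with the lowest value just inside the filter of -0.4, but Spon3F lay within the range of the post-PHx tumors, so the groups overlapped. The means were -0.02 ± 0.03 and -0.19 ± 0.14 (SD, n = 6 each).

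The difference of Fas did not pass the test over all gene windows. It was 0.16, higher in post-PHx tumors (SE 0.06, 95% interval 0.03 to 0.30; limma, adjusted p = 0.681), and 0 of 20464 gene windows (0%) passed with this test. Without adjustment Fas was past 0.05 in limma, as were 1237 gene windows (6.04%) that were higher in post-PHx tumors. The exact permutation test gave p = 0.00866 for Fas and 0.450 to 0.894 for the other 6 genes, with no adjustment for the 7 tests. Within the slide of both groups, PHx5M and PHx6F read -0.01 and -0.06, and Spon5F and Spon6F read -0.06 and -0.25. The difference there was 0.12, with an exact permutation p of 0.333, which is the smallest that 2 tumors against 2 allow. With the slide as a term in limma the adjusted p was 0.999985.

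Against the autosomal median, the spontaneous mean of Fas was the value nearest to the threshold. At -0.19 (SE 0.04) it had an adjusted p of 0.0697 in limma, where 0 gene windows passed and 2569 (12.6%) were lower at an unadjusted p under 0.05. Limma took this SE from the spread of both groups together. The SD of Fas was 0.03 in the post-PHx and 0.14 in the spontaneous tumors, so the SE understates the spread among the spontaneous mice. Under the alternatives, 5 settings brought the adjusted p below 0.05, the lowest being 0.0170 with own probes only, and 22 did not, the highest being 0.820 with slide as a fixed term. In these 5 settings, between 607 and 1190 of all gene windows passed for the spontaneous mean, so passing there was not particular to Fas. The post-PHx mean of Fas, by the same test in the reported setting, had an adjusted p of 0.9997. With own probes only, however, Fas also read below 0 in every post-PHx tumor, from -0.21 in PHx2F to -0.03 in PHx3M. The difference between the groups stayed at 0.16 there, so the lower values with own probes were common to both groups.

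Low values of Fas came with a low median of chromosome 19. The median of that chromosome was -0.42 in Spon2M, -0.26 in Spon1M, -0.15 in Spon6F, -0.08 in Spon4F, -0.02 in Spon3F and 0.02 in Spon5F. The Fas window lay within 0.1 of the chromosome median in 12 of 12 tumors, between -0.10 in Spon6F and 0.04 in PHx4M. In Spon2M the running mean stayed at or below -0.25 from 7491682 to 40118968, over 32.6 Mb, 664 probes and 314 gene names, with a mean of -0.42, and at or below -0.4 for 4.59 Mb with its edge at Fas. In Spon1M the stretch at or below -0.25 measured 4.69 Mb with a mean of -0.29, in a chromosome whose median was close to that limit. No tumor thus had a low Fas window on a chromosome 19 that was otherwise at 0. The low Fas values therefore could not be told apart from those of the other genes of this chromosome. The 2 probes of Fas read below their flanking probes in 11 of 12 tumors, by a median of 0.12.

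**Figure D3:**
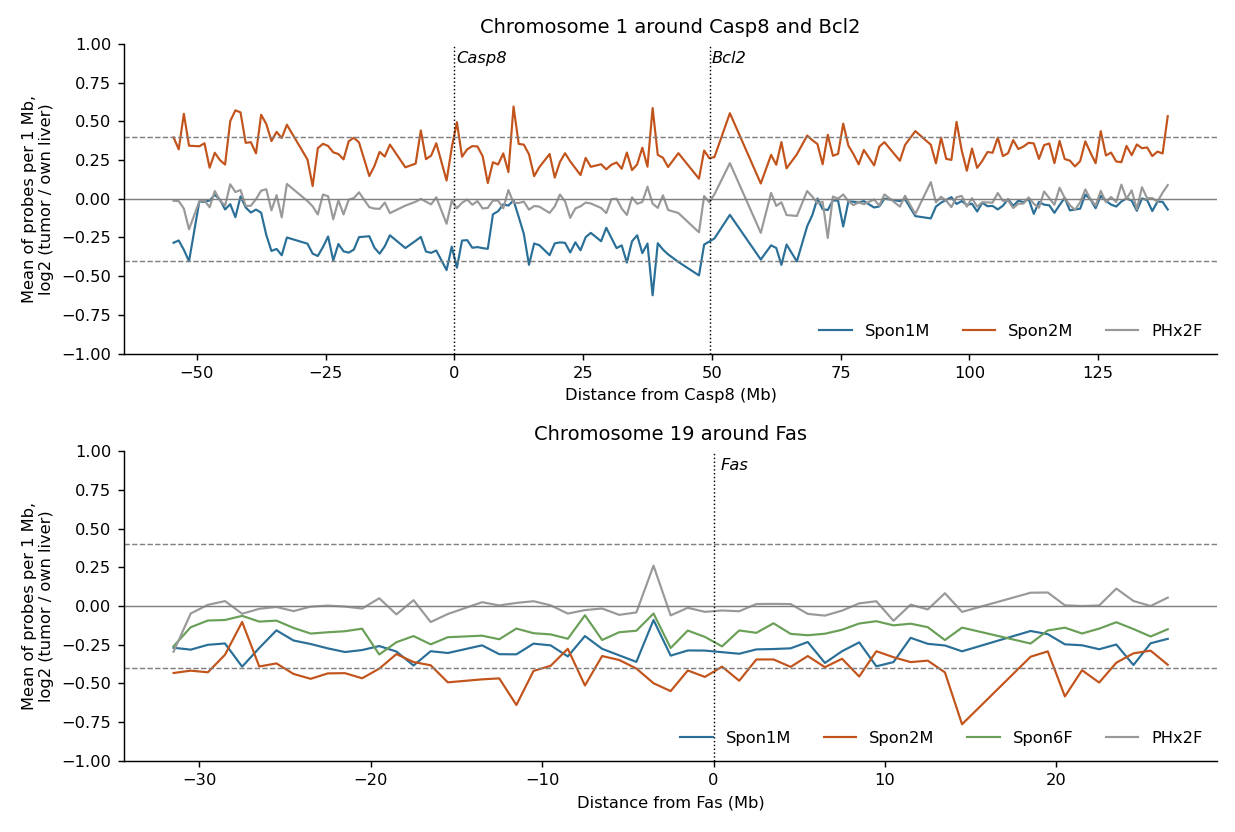
Mean log2 ratio of the probes in steps of 1 Mb (vertical axes) along chromosome 1, by distance from Casp8, and along chromosome 19, by distance from Fas; dashed lines mark -0.4 and 0.4, and PHx2F is shown as a post-PHx tumor near 0. Spon2M was high along most of chromosome 1 and low along most of chromosome 19, Spon1M was low in parts of chromosome 1 that hold Casp8 and Bcl2, and Fas followed the level of its chromosome.

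Bbc3 and Bax, both pro-apoptotic, lie on chromosome 7, and amplified stretches lay between them. Bbc3 has 1 probe at 15471527 to 15471577, between probes of Ccdc9 and AK162789. Its post-PHx windows ran from -0.06 in PHx3M through a median of -0.02 to 0.07 in PHx5M. Its spontaneous windows read 0.14 in Spon1M, -0.01 in Spon2M, -0.29 in Spon3F, 0.17 in Spon4F, 0.03 in Spon5F and 0.08 in Spon6F. The post-PHx tumors thus stayed close to 0 and the spontaneous tumors spread to both sides, with SDs of 0.05 and 0.17 (n = 6 each). The difference was -0.03 (95% interval -0.19 to 0.13; limma, adjusted p = 0.982), and without Spon3F it was -0.09, with an exact permutation p of 0.0325 and a limma adjusted p of 0.683.

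The value of Bbc3 in Spon3F rested on few probes. Its own probe read -2.68 there, against -0.44 to 0.32 in the other 11 tumors. The low stretch around it held 12 probes over 0.456 Mb, with a mean of -0.47, and the SD of the flanking probes was 0.68 in this tumor. Spon3F was also the array with the most probes below -1, and the part of this feature of the array in the low value was not tested. Bbc3 read below its flanking probes in 10 of 12 tumors.

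No probe carried the name Bax. By the gene order of the RefSeq table for GRCm38.p6, Bax lies with Gys1 and Ftl1 between Ruvbl2 and Dhdh, whose nearest probes end at 45296778 and start at 45349855 of chromosome 7 in mm8. The 10 probes on each side of this gap were read in place of Bax, and they do not measure the gene. They gave 0.06, 0.01, 0.05, 0.18, 0.10 and 0.05 in PHx1M to PHx6F, and -0.05, 0.17, 0.02, 0.25, 0.01 and -0.01 in Spon1M to Spon6F. The 2 groups overlapped, with means of 0.07 ± 0.06 and 0.06 ± 0.12 (SD, n = 6 each). The highest value, in Spon4F, stood beside a chromosome 7 median of 0.14.

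The amplified stretches of chromosome 7 did not reach either gene. In PHx3M, 471 probes from 17140063 to 35114083 had a mean of 1.02. This stretch started 1.67 Mb beyond Bbc3 and ended 10.2 Mb before the gap that holds Bax. Shorter stretches at or above 0.4 followed it in PHx3M, the last with a mean of 0.41 and ending 7.42 Mb before the gap. In PHx1M a stretch with a mean of 0.54 started 2.50 Mb beyond Bbc3, and in PHx4M another with a mean of 0.56 ended 4.62 Mb before the gap. In PHx3M, PHx1M and PHx4M, Bbc3 read -0.06, -0.02 and -0.01, and the neighbourhood of Bax 0.05, 0.06 and 0.18. On the other side of Bbc3, Spon1M had stretches at or above 0.4. The first of them, from 3215773 to 4376386, had a mean of 0.51, and the nearest ended 9.59 Mb before Bbc3. The edges are those of a running mean of 21 probes and are accurate only to the length of that run.

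**Figure D4:**
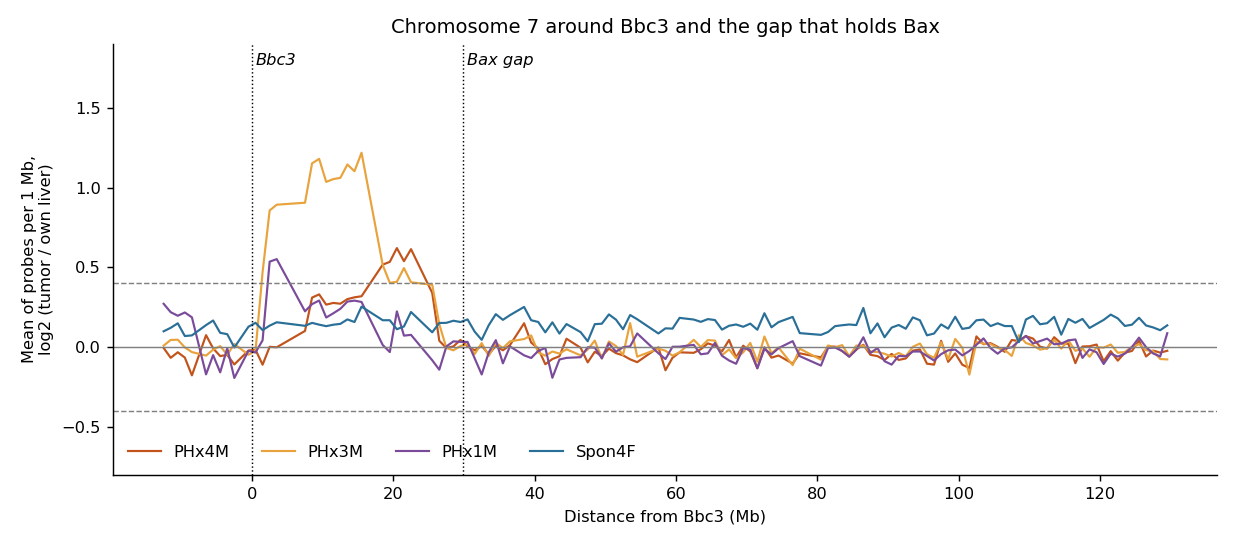
Mean log2 ratio of the probes in steps of 1 Mb (vertical axis) along chromosome 7, by distance from Bbc3 (horizontal axis), in PHx4M, PHx3M, PHx1M and Spon4F; dashed lines mark -0.4 and 0.4, dotted lines Bbc3 and the gap that holds Bax. The gained stretches of the 3 post-PHx tumors lay between the dotted lines, starting 1.67 Mb beyond Bbc3 in PHx3M, and Spon4F was slightly raised along the whole chromosome.

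Read by tumor, the 7 genes moved least in PHx2F, PHx6F and PHx1M, where their windows spanned 0.09, 0.10 and 0.16, and most in Spon2M and Spon1M, where they spanned 0.77 and 0.60. The SD over all gene windows was 0.16, 0.11 and 0.09 in PHx2F, PHx6F and PHx1M, and 0.20 and 0.22 in Spon2M and Spon1M. By this SD, Spon1M and Spon2M also spread most over the whole genome. The spontaneous range was wider than the post-PHx range for 4 of 7 genes (Bcl2, Bbc3, Fas and Casp8) and narrower for Bcl2l1, Bcl2l11 and Mcl1. The share of all gene windows with a wider spontaneous range was not computed. Spon2M joined a high Casp8 and Bcl2 with a low Fas. Spon1M joined low Casp8, Bcl2 and Fas with a high Bcl2l1. No single direction with respect to apoptosis was shared by the 7 genes in either tumor. The median difference between the groups was 0.02 for the 7 genes and 0.01 for all gene windows.

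Of 41 other apoptosis genes listed from textbook roles, 33 had probes, and 0 of them passed limma's test between the groups. At an unadjusted p under 0.05, 4 of 33 did, against 6.37% of all gene windows. Of their 396 pairs with tumors, 8 were gained (2.02%) and 4 lost (1.01%), beside 1.87% and 1.01% of all pairs. These pairs fell on 10 genes, of which 7 were gained and 3 lost in at least 1 tumor.

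The most strongly gained was Tnfrsf21, a death-domain receptor of the TNF receptor family, at 0.98 in PHx6F, 0.70 in Spon6F and 0.38 in Spon1M. Tnfsf10, which encodes the death ligand TRAIL, read 0.68 in PHx4M, and Casp6, an executioner caspase, 0.43 in the same tumor. Casp12 and Birc3, which encode a caspase and an inhibitor of apoptosis and both lie near the start of chromosome 9, read 0.60 and 0.52 in PHx3M. Genes that promote and genes that restrain apoptosis were thus gained together in PHx3M and, with Bcl2l1, in PHx4M. The files name the Birc3 probes so, and this older name has been used for more than 1 gene of the family.

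In the spontaneous tumor Spon1M, the anti-apoptotic gene Bcl2l10 and the BH3-only gene Pmaip1 read 0.47 each. Bad, another BH3-only gene, read -0.43 there and lies on chromosome 19 like Fas. Tnfrsf25, a death receptor on chromosome 4, read -0.61 in Spon3F, -0.50 in Spon1M and -0.36 in Spon5F. Casp9, the initiator caspase of the mitochondrial route on the same chromosome, read -0.40, -0.30 and -0.29 in Spon1M, Spon3F and Spon5F, just short of the filter in the first. The losses at 0.4 were all in spontaneous tumors. Losses over all gene windows lay mostly there too, with 6.48% of the spontaneous and 0.274% of the post-PHx pairs lost at 0.25. The shares of each group at 0.4 were not computed, so the place of these losses is not particular to the 33 genes. Of the 12 tumors, 5 (PHx1M, PHx2F, PHx5M, Spon2M and Spon4F) had neither a gain nor a loss among the 33 genes.

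By role, the median difference between post-PHx and spontaneous tumors ran from -0.01 for the 6 inhibitors and antagonists to 0.08 for the 8 caspases and apoptosome genes, of which 7 were higher in post-PHx tumors. Of the 10 death receptors, ligands and adaptors, 9 were higher in post-PHx tumors, with a median of 0.03. Over all gene windows 58% were higher in post-PHx tumors. None of these genes passed the test, and genes of 1 chromosome can share its level. Windows of near neighbours also share probes. Cflar, the inhibitor of caspase-8 next to Casp8, read -0.31 in Spon1M and 0.37 in Spon2M, close to Casp8. Its probes lie inside the Casp8 window, so the 2 readings were not independent.

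**Figure D5:**
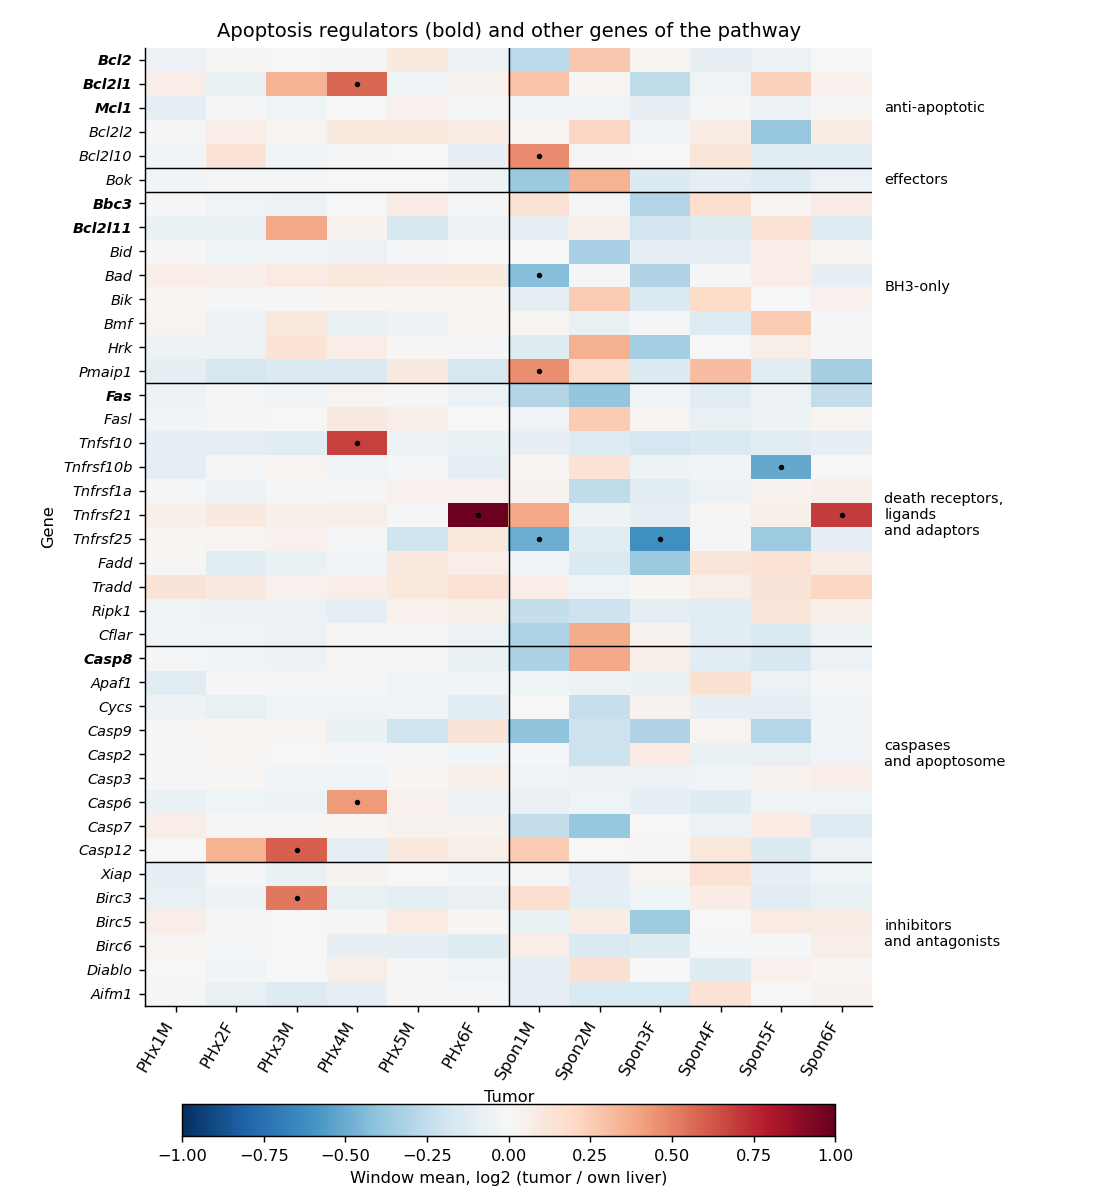
Window mean log2 ratio (colour, blue low and red high) of the 7 regulators (bold) and 33 other apoptosis genes (rows, by role) in the 12 tumors (columns, post-PHx left of the line); dots mark values at or beyond -0.4 or 0.4. Gains and losses lay in most roles, with 1 dot among the 7 regulators and 12 among the other genes. Tnfrsf21 was gained in 2 tumors and Tnfrsf25 lost in 2, and each other gene with a dot had it in 1 tumor.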

How the data were processed

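Tumor DNA of 12 mice was compared with DNA of their own livers on 12 two-colour Agilent 4x44K mouse arrays, without dye swaps. Per the file headers, Agilent Feature Extraction 10.5.1.1 had subtracted background, corrected a spatial trend and scaled each dye before the authors deposited the signal intensities of each spot and the log10 ratio of red (tumor) over green (liver). Each array had 43020 spots of 42404 probes besides controls, placed on build mm8 (NCBI36). Here the ratios were multiplied by log2(10), 108 to 1218 spots marked as outliers were dropped, repeated spots were averaged to 1 value per probe, and the median of the autosomal probes was set to 0 on every array, which left 41081 to 42160 probes.

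Windows (own probes and 10 on each side) were averaged for 20464 gene names on 1 chromosome that span at most 3 Mb. Groups were compared over all windows with limma 3.58.1 in R 4.3.3 (Benjamini-Hochberg adjustment, threshold 0.05) and per member with the two-sided exact permutation test. The limma step was tested on simulated data. Stretches are runs of a mean of 21 probes past the stated level. Python 3.11.15, numpy 2.4.6, pandas 2.3.3, scipy 1.17.1 and matplotlib 3.10.9 were used. The arrays carry no counts, so their number and the signal over background limit the precision.

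The members and lists were chosen with earlier results of these data known. Named besides the members are their neighbours, up to 3 pathway genes per role past the filter with the largest absolute values, and for the member with the widest range 3 genes on other chromosomes, at most 1 per chromosome, with the highest correlation. Casp9 and Cflar were named after their values were seen. Names are those of the files, except Xiap, which the files call Birc4. Bcl2a1a to Bcl2a1d, Bak1, Birc2, Htra2 and Endog were not matched to a probe and, like Bax, were not analysed here. The authors' own aberration calls were not used.

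The alternatives were own probes only, 5 or 20 flanking probes, the window median, no centring, centring on the mode, normexp with an offset of 50, only probes well above background, outlier spots kept, filters of 0.25 and 0.6, slide as a fixed term or a random block, only the slide of both groups, sex as a term, tumor number as a replicate block, the methods' t-test and each tumor left out. Leaving out Spon1M and Spon3F together, the arrays with the most probes below -1, was added after seeing the data.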

Additional observations from a re-analysis of the deposited data

Results flagged for a closer look

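The Bcl2l11 window of PHx3M, at 0.380563 on the log2 scale, stood apart from the other 5 post-PHx tumors, which ran from -0.16 to 0.03. Its gap to the next tumor was 0.643 of the range of the group, above the 95% critical value of Dixon's test for 6 values. Chance alone passes this limit in about 1 group of 20, and 14 groups were examined. The same tumor had the second-highest Bcl2l1 window, and both genes lay in 1 stretch of 55.4 Mb at or above 0.25.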

How the results depend on the processing

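The number of gene windows that passed limma's test between the groups was 0 in every setting run, with 1304 at an unadjusted p under 0.05 in the reported setting, 1183 with the methods' t-test and 0 after its adjustment. No member passed this test in any setting, and its lowest adjusted p over all alternatives was 0.230, for Fas with sex as a term. Of 189 alternative differences of the 7 members, 171 kept their direction and 18 turned, all of differences that had not passed. For the means against 0, the number of windows that passed was 0 as reported. It was 547 post-PHx and 850 spontaneous with own probes only, 5 and 797 with normexp, and for the spontaneous mean alone 145 with centring on the mode, 674 with slide as a random block, 1190 with sex as a term and 0 to 607 with each tumor left out, the latter without Spon5F. The cause was not tested.

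With own probes only, the difference of Bcl2 was -0.0530, of Mcl1 -0.000166, of Bbc3 0.124 and of Casp8 -0.0455, and the Mcl1 means were 0.208 in both groups. With 5 flanking probes Casp8 was -0.0032, and with 20 the post-PHx mean of Mcl1 was 0.0123. With the window median Mcl1 was -0.0182 and Casp8 -0.0092, and Casp8 was -0.0198 with normexp and -0.0089 with sex as a term. With slide as a fixed term, or within the slide of both groups, Bcl2l1 was -0.140 and Bcl2l11 -0.115. Without Spon1M and Spon3F Bcl2 was -0.0293, Casp8 was -0.0343 and the spontaneous mean of Bcl2 was 0.0302. With each tumor left out, Bcl2 ran from -0.0294 (without Spon1M) to 0.0766, Casp8 from -0.0429 (without Spon1M) to 0.0971, Bcl2l11 from -0.0129 (without PHx3M) to 0.0995, and Bbc3 from -0.0925 (without Spon3F) to -0.0010. For Fas the exact permutation p was 0.00216 to 0.0498 with each tumor left out, and it was above 0.05 with 5 flanking probes (difference 0.128, p = 0.0931), the window median (0.139, p = 0.0693), normexp (0.117, p = 0.0801) and within the slide of both groups (0.118, p = 0.333).

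The pairs of members and tumors past 0.4 numbered 1 as reported, 10 with own probes only, 4 with 5 flanking probes, 2 with 20, 3 with the window median, 2 without centring, 3 with centring on the mode, 2 with normexp, 12 with a filter of 0.25 and 0 with 0.6. Bcl2l1 in PHx4M passed at 0.4 in each of the settings that kept this filter. Fas in Spon2M also passed with own probes (-0.51), 5 (-0.43) or 20 (-0.42) flanking probes, the window median (-0.45), no centring (-0.40) and normexp (-0.50), and Casp8 in Spon2M with own probes (0.72), 5 flanking probes (0.47), the window median (0.44) and centring on the mode (0.41). The spontaneous mean of Fas passed limma's test against 0 with own probes only (adjusted p = 0.0170), sex as a term (0.0273), normexp (0.0287), slide as a random block (0.0342) and without Spon5F (0.0369), and did not in 22 other settings (0.0509 to 0.820).

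With the tumor number as a replicate block, 0 windows passed in each of the 3 comparisons and the difference of Fas had an adjusted p of 0.578. The numbers did not pair the tumors: the correlations of same-numbered tumors' deviations ran from -0.17 to 0.55, and 1 of 6 numbers, number 6 on the shared slide, correlated best with its own.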
